A study of Mus musculus with 23 samples.

Results

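Jarid2 and the other accessory subunits of Polycomb repressive complex 2 (PRC2) were followed as 5 gene rows, Jarid2, Aebp2, Mtf2, Phf1 and Phf19, of the 32285 genes in the count tables. The rows were chosen by gene symbol, and each symbol was found once in all 11 gene-expression libraries. The study asked how loss of Jarid2, a cofactor of PRC2, differs from loss of Ezh2, its catalytic subunit, in blood-forming cells of the mouse. All groups, Control included, carry the label Mx1-Cre, a Cre recombinase under an interferon-inducible promoter that is active in blood cells and in other tissues. The groups labelled Jarid2 KO and Ezh2 KO are Jarid2fl/fl and Ezh2fl/fl mice respectively, in which loxP sites flank part of the gene, and the protocols write the deleted genotypes as Jarid2Δ/Δ and Ezh2Δ/Δ. The labels state neither how Cre was induced nor which exons were removed, and they name no floxed allele for Control.

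KSL cells, the c-Kit+ Sca1+ Lineage- fraction of bone marrow that holds stem and early progenitor cells, were sorted in 2 experiments. The baseline experiment used untransplanted mice of 2 months, with 1 male and 1 female library per genotype (Control, Jarid2 KO and Ezh2 KO, n = 2 each), and read 6 surface antibodies in the same cells. In the transplant experiment, 500000 CD45.2 donor marrow cells of each genotype competed with 500000 CD45.1 cells in lethally irradiated recipients, and donor-derived KSL cells were sorted after 18 weeks (1 Control, 2 Ezh2 KO and 2 Jarid2 KO libraries). Donor sex in the transplant experiment is not labelled, nor whether a library held 1 animal or a pool, so p-values measure the spread between these libraries. The antibody-only samples and the H3K27me3 CUT&Tag samples, from secondary recipients, were not analysed here.

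PRC2 places methyl groups on lysine 27 of histone H3, a mark of repressed genes, through the core made of Ezh1 or Ezh2, Eed, Suz12 and Rbbp4 or Rbbp7. Accessory subunits join this core in alternative forms. Jarid2, a Jumonji-family protein without demethylase activity, and the zinc-finger protein Aebp2 mark the form called PRC2.2, while the Polycomb-like proteins Phf1, Mtf2 and Phf19, which bind unmethylated CpG-rich DNA and carry a Tudor domain, take each other's place in the form called PRC2.1. In blood formation PRC2 restrains differentiation and self-renewal genes, and loss of its subunits is known from myeloid and lymphoid disease.

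In mouse genome build GRCm38.p6 (RefSeq), Jarid2 lies on chromosome 13 at 44730774-44921643, Aebp2 on chromosome 6 at 140622454-140678472 and Mtf2 on chromosome 5 at 108065660-108109219. Phf1 lies on chromosome 17 at 26933127-26937908 and Phf19 on chromosome 2 at 34893752-34914353. RefSeq promoter entries matched all 5 genes. The 250 bases before the first listed start are shown for 3 of them: Jarid2, the gene named in the Jarid2 KO label, and Mtf2 and Phf19, whose levels moved together across cell classes (given with the class levels). They were searched on both strands for the letters TTCCCGC and TTGGCGC, 2 forms of the core that E2F cell-cycle factors are known to bind, which do not overlap each other. Capitals mark a match on the strand printed.
Jarid2 (chr13:44730524-44730773, plus strand): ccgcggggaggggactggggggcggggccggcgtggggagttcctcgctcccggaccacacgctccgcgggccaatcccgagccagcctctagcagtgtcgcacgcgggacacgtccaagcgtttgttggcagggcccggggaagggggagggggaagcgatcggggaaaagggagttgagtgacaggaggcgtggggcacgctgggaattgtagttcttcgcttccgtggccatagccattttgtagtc
Mtf2 (chr5:108065424-108065673, plus strand): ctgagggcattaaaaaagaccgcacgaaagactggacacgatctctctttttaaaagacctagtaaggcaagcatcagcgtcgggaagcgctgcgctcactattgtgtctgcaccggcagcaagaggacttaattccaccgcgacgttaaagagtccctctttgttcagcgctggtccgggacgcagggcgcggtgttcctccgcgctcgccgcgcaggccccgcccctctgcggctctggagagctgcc
Phf19 (chr2:34913977-34914226, minus strand): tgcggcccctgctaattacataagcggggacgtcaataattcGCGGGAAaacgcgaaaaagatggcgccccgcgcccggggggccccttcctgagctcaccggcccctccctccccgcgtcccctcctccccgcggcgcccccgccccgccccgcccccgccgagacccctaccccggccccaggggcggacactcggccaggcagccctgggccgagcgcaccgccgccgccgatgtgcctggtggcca
Phf19 held 1 match, GCGGGAA, the reverse complement of TTCCCGC, which began 208 bases before the listed start. That start and the window shown lie inside the Phf19 span given above. Neither form was found in these windows of the other 4 members, and 5.62% of all 32851 promoter windows of that length held 1 or more. The core genes Suz12 and Rbbp4 held 1 match each. The windows shown are rich in CG dinucleotides, with 23 in Jarid2, 23 in Mtf2 and 31 in Phf19, against a median of 6 over all windows.

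Sequencing was deep for all libraries: 4354 to 9208 cells per library were kept, with 67629053 to 126527222 unique molecular identifiers (UMIs) in total. Between 4 and 31 cell barcodes were shared by any pair of libraries, at most 0.392% of the smaller one. Replicates of a group differed by far more than sampling noise (chi-square per degree of freedom of 32.6 to 261). The sort genes were present in every library, with Kit at 124 to 295 CPM (UMIs per 1000000 UMIs of the library), Ptprc, which encodes CD45, at 141 to 222 CPM and Ly6a, which encodes Sca1, at 19.2 to 73.8 CPM. Summed levels of 10 myeloid markers, such as the granule genes Mpo and Elane of myeloid progenitors, stood at 460 to 851 CPM at baseline and at 8413 to 17350 CPM after transplantation, highest in the libraries labelled Jarid2 KO. Xist without any UMI from the Y chromosome was seen in 59.4% of transplant Control cells, in 0.0163% and 0.0511% of Ezh2 KO cells and in 48.3% and 49.9% of Jarid2 KO cells. Y-chromosome UMIs without Xist were seen in 18.5% of Control, 73.6% and 68.7% of Ezh2 KO and 27.5% and 32.2% of Jarid2 KO cells. The transplant Control and Jarid2 KO libraries thus held both kinds of cells and the Ezh2 KO libraries almost only the second, so a fit on male cells only (Y-chromosome UMIs and no Xist; 807 Control, 4524 and 4031 Ezh2 KO and 1393 and 1620 Jarid2 KO cells) is given where it changed a result. Barcodes over the limit of 10% mitochondrial UMIs were 2.82% to 5.82% at baseline, and after transplantation 25.7% and 27.4% for the Ezh2 KO libraries, 36.6% and 37.4% for those of Jarid2 KO and 43.4% for Control. Ezh2 fell in the transplant libraries labelled Ezh2 KO by 2.19 on the log2 scale (standard error, SE, 0.13, adjusted p = 0.000832, edgeR's quasi-likelihood test with Benjamini-Hochberg adjustment). At baseline the Ezh2 difference was -0.33 (adjusted p = 0.0599) and did not pass the threshold of 0.05.

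The transcript of the gene named in the Jarid2 KO label was not lower in those libraries: it was the most abundant there in both experiments. At baseline Jarid2 stood at 159 and 149.6 CPM in the male and female Control libraries. The Ezh2 KO libraries had 134 and 141 CPM, and the libraries labelled Jarid2 KO had 215 and 205 CPM. Both Jarid2 KO libraries thus lay above all 4 others, in the male and in the female pair. After transplantation Jarid2 was at 38.5 CPM in Control, at 41.5 and 45.8 CPM in Ezh2 KO and at 57.3 and 57.1 CPM in the libraries labelled Jarid2 KO. The groups did not overlap there either, and each value rested on at least 2607 UMIs. Of all genes tested, 8.97% had both Jarid2 KO libraries above every other library at baseline, 12.8% after transplantation and 1.92% in both experiments. Counts from the 3′ end of a transcript do not check a deletion of internal exons, so these values say nothing on whether the protein was lost, and every direction given here rests on the library labels.

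**Figure D1:**
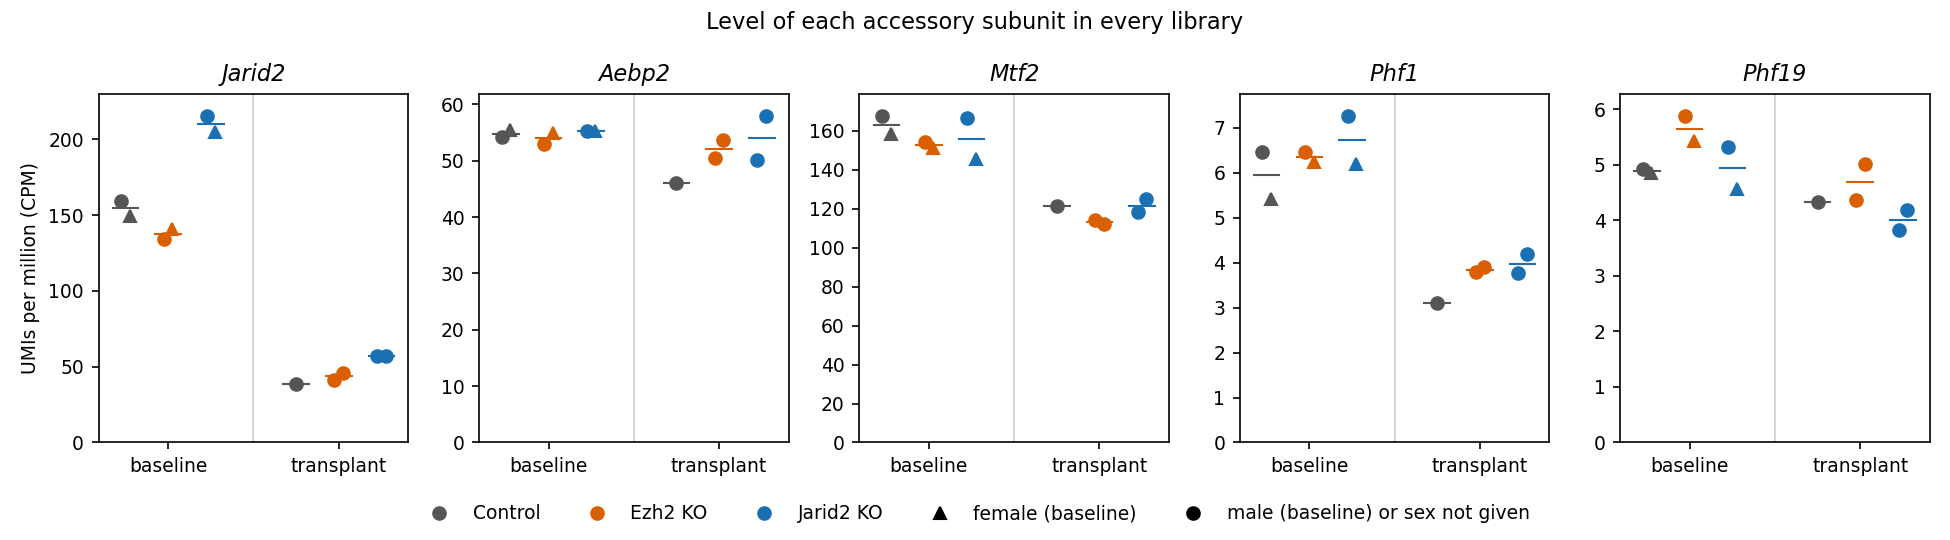
CPM of each accessory subunit (y axis, from 0, scaled per gene) in every library of the baseline and transplant experiments. Points are libraries (triangles female), coloured by labelled genotype, and lines are group means. The Jarid2 points labelled Jarid2 KO, at 205 and 215 CPM at baseline and 57.1 and 57.3 CPM after transplantation, are above the other points of their experiment.

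Against Ezh2 KO, Jarid2 rose in the libraries labelled Jarid2 KO by 0.58 on the log2 scale at baseline (SE 0.05, adjusted p = 0.0149) and by 0.42 after transplantation (SE 0.09, adjusted p = 0.0334). The fit over both experiments, with experiment and baseline sex as terms, gave 0.52 (SE 0.06, adjusted p = 0.0021, edgeR), and that call held under all 19 alternatives. Jarid2 was the 1 member of 5 called in each of these comparisons, where 5.91%, 12.0% and 8.58% of all genes were called. Without the male Jarid2 KO library the baseline difference was 0.56 with an adjusted p of 0.0913. The transplant call held under 7 of 14 alternatives. There the edgeR adjusted p was 0.186 without Ezh2 KO replicate 1, 0.113 without Ezh2 KO replicate 2 and 0.0679 without Jarid2 KO replicate 1. It was 0.0626 in male cells only (difference 0.37), 0.0758 with genes of at least 10 CPM, 0.0575 with the strict cell filter (difference 0.44, at most 5% mitochondrial UMIs) and 0.0675 with a replicate block. With every barcode kept, those over the mitochondrial limit included, the difference was 0.41 (adjusted p = 0.0345).

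Against Control the difference was of like size but missed the threshold under edgeR. It was 0.46 at baseline (SE 0.05, unadjusted p = 0.000172, adjusted p = 0.107), 0.52 after transplantation (SE 0.12, adjusted p = 0.211) and 0.47 over both (SE 0.07, adjusted p = 0.101). No member was called there, with 0.0330%, 0.336% and 0.00528% of all genes called, and Jarid2 had an unadjusted p under 0.05 in all 3, joined over both experiments by Phf1 (0.24, SE 0.08, unadjusted p = 0.0184, adjusted p = 0.579, edgeR). Of all genes tested, 11.5%, 8.34% and 7.24% had such an unadjusted p. The baseline Phf1 difference, 0.18 in mean log2 CPM, was 0.05 at the Control shares of cell classes and -0.01 with equal weights per class, while that after transplantation, 0.36, was 0.43 and 0.46 (classes named from markers, described further on). T or innate lymphoid-like cells, where Phf1 was high, made up 3.82% and 4.41% of baseline Jarid2 KO cells and 1.06% to 1.88% of the others. The part of that in the Phf1 difference was not tested. DESeq2 called Jarid2 in all 3 of these comparisons, with adjusted p-values of 2.12e-10, 0.0392 and 9.16e-09. The share of all genes that DESeq2 called is not given here, so these calls have no background beside them. In Ezh2 KO against Control, Jarid2 differed by -0.12 at baseline (adjusted p = 0.224) and by 0.09 after transplantation (adjusted p = 0.778). The Jarid2 differences were not shown to vary between experiments: the interaction term was 0.07 (SE 0.12, adjusted p = 0.963) against Control and -0.15 (SE 0.11, adjusted p = 0.517) against Ezh2 KO.

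Aebp2, the partner of Jarid2 in PRC2.2, held a narrow range over genotypes at baseline. Its baseline levels were 54.1 and 55.4 CPM in Control, 53.0 and 54.9 CPM in Ezh2 KO and 55.2 and 55.3 CPM in Jarid2 KO. The range was wider after transplantation, with Aebp2 at 46.0 CPM in Control, 50.4 and 53.7 CPM in Ezh2 KO and 50.2 and 57.9 CPM in Jarid2 KO. The Jarid2 KO minus Control difference was 0.03 (SE 0.04, adjusted p = 0.770) at baseline and 0.18 (SE 0.10, adjusted p = 0.749) after transplantation.

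Mtf2, the Polycomb-like subunit with the most UMIs here, was at 167 and 158 CPM in baseline Control, 154 and 151 CPM in Ezh2 KO and 166 and 145 CPM in Jarid2 KO. The spread between the male and the female Jarid2 KO libraries was larger than any difference between group means. After transplantation Mtf2 was at 122 CPM in Control, 114 and 112 CPM in Ezh2 KO and 118 and 125 CPM in Jarid2 KO. Its differences from Control ran from -0.19 (SE 0.12, Ezh2 KO after transplantation) to -0.04 (SE 0.05, Jarid2 KO at baseline), with adjusted p-values of 0.530 or more.

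Phf1 and Phf19 gave few UMIs, 210 to 819 per library, so that counting error alone is several percent of a level. Phf1 stood at 6.47 and 5.42 CPM in baseline Control, 6.47 and 6.25 CPM in Ezh2 KO and 7.26 and 6.19 CPM in Jarid2 KO. After transplantation it was at 3.11 CPM in Control, 3.79 and 3.89 CPM in Ezh2 KO and 3.77 and 4.19 CPM in Jarid2 KO. The knockout libraries were above the single Control there, with differences of 0.23 (SE 0.14) and 0.30 (SE 0.14) and adjusted p-values of 0.534 and 0.672. In male cells only, these differences were 0.69 (adjusted p = 0.236) and 0.92 (adjusted p = 0.412), not called either. Phf19 was at 4.92 and 4.85 CPM in baseline Control, 5.87 and 5.42 CPM in Ezh2 KO and 5.33 and 4.56 CPM in Jarid2 KO. After transplantation Phf19 stood at 4.33 CPM in Control, 4.36 and 5.01 CPM in Ezh2 KO and 3.82 and 4.19 CPM in Jarid2 KO. The Phf19 differences between Jarid2 KO and Ezh2 KO were -0.22 (SE 0.10, adjusted p = 0.236) and -0.19 (SE 0.12, adjusted p = 0.358). The baseline direction turned at fixed class shares, from -0.19 in mean log2 CPM to 0.16 at Control shares and 0.23 with equal weights.

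None of the 5 members was called by edgeR in Ezh2 KO against Control, at baseline, after transplantation or over both, where 3.47%, 4.84% and 3.94% of all genes were called. At an unadjusted p under 0.05 there was 1 member at baseline, Phf19, with a difference of 0.25 (SE 0.10, adjusted p = 0.211), and none in the other 2; of all genes, 23.4%, 17.1% and 18.6% had such an unadjusted p. For Phf19 that baseline difference, 0.21 in mean log2 CPM, was 0.00 at Control shares of classes and -0.02 with equal weights. B-like cells, where Phf19 was high, made up 21.0% and 11.7% of the Ezh2 KO libraries and 2.14% to 6.38% of the others. The part of that in the Phf19 difference was not tested. DESeq2 called no member in these comparisons. No interaction with experiment was called for any member by either tool, against 0.0211% of all genes for Jarid2 KO minus Control, 0.734% for Ezh2 KO minus Control and 4.64% between the knockouts. None of these interaction terms had an unadjusted p under 0.05. Of all genes, 6.52%, 11.4% and 19.2% had one in the same 3 comparisons (edgeR).

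**Figure D2:**
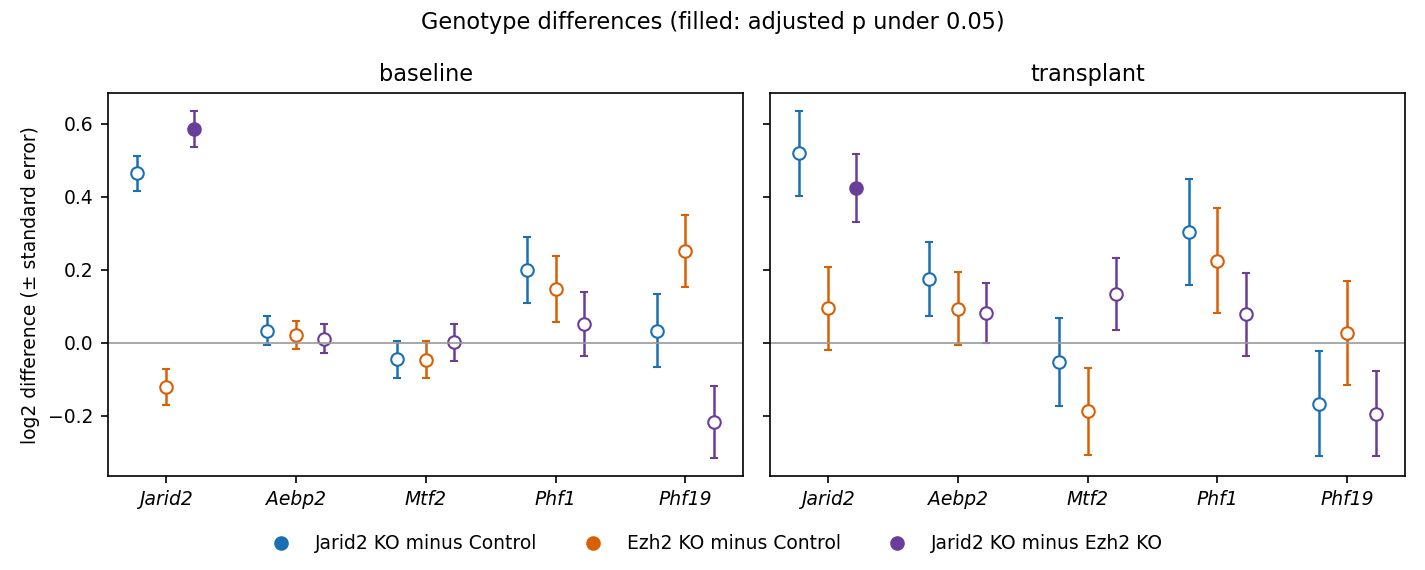
Log2 difference of each accessory subunit (y axis, error bars 1 SE, edgeR) for the 3 genotype comparisons at baseline (n = 2 per group) and after transplantation (1 Control library). Filled points passed an adjusted p of 0.05, and only Jarid2 in Jarid2 KO minus Ezh2 KO did, at 0.58 and 0.42.

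The other Polycomb lists were compared in the same fits. Against Control, none of the 6 core genes, 5 tested other accessory genes (Epop, Lcor, Lcorl, Elob and Eloc), 21 PRC1 genes, 3 H3K27 demethylase genes and 4 Kdm5 relatives of Jarid2 was called in Jarid2 KO by edgeR in either experiment. The list medians lay between -0.09 and 0.11, beside 0.00 to 0.01 over all genes; unadjusted p-values under 0.05 were met by 3 core, 1 other accessory and 2 PRC1 genes at baseline, where 11.5% of all genes met them. After transplantation they were met by 1 other accessory, 1 PRC1, 1 demethylase and 1 Kdm5 gene and no core gene, with 8.34% of all genes. In Ezh2 KO against Control, Bmi1, a PRC1 subunit, rose by 0.83 (SE 0.05, adjusted p = 0.0112) at baseline and by 1.44 (SE 0.14, adjusted p = 0.00424) after transplantation. Bmi1 was the 1 of 21 PRC1 genes called at baseline, and Bmi1 and Cbx8, which fell by 0.77, were the 2 of 21 called after transplantation; 3.47% and 4.84% of all genes were called there. Among the demethylases and the Kdm5 relatives, the X-linked Kdm6a fell by 0.58 and the Y-linked Uty and Kdm5d rose by 1.09 and 1.49 in transplant Ezh2 KO, the libraries that nearly lacked Xist-positive cells. In male cells only, none of these 3 was called (Kdm6a -0.02, Uty -0.30, Kdm5d 0.23), nor was Cbx8 (-0.80, adjusted p = 0.0758, edgeR).

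Between the knockouts, Rbbp4, a histone-binding core subunit, was the 1 of 6 core genes called at baseline, lower in Jarid2 KO (-0.25, SE 0.04, adjusted p = 0.0409), with 5.91% of all genes called. B-like cells, where Rbbp4 stood at 1.88 times the library, made up 21.0% and 11.7% of the Ezh2 KO and 2.83% and 3.14% of the Jarid2 KO cells, and the part of that in the Rbbp4 result was not tested. After transplantation, where 12.0% of all genes were called, Ezh2 was the 1 core gene called, higher in Jarid2 KO by 2.08. Ezh1, Eed and Suz12 were not called, with differences of 0.28, -0.10 and -0.08 at baseline and -0.01, 0.05 and -0.12 after transplantation. Ezh2 had the highest core difference at baseline, 0.30, and was not called there. An unadjusted p under 0.05 was met by 5 of 6 core genes at baseline, beside 26.5% of all genes (edgeR). After transplantation 1 of 6 met it, beside 26.4%. Epop, an accessory subunit of PRC2.1, fell by 0.99 (SE 0.12, adjusted p = 0.00506) after transplantation in Jarid2 KO against Ezh2 KO. Of the PRC1 genes, Cbx8 and Kdm2b rose by 1.13 and 0.34 in the same comparison and Bmi1 fell by 1.32; the Kdm2b call was lost in male cells only (0.33, adjusted p = 0.0682, edgeR). At baseline 1 of 21 was called, Bmi1, which fell by 0.74. Over both experiments 5 of 21 were called, beside 8.58% of all genes: Cbx8, Pcgf2, Kdm2b and Phc3 rose by 0.71, 0.59, 0.30 and 0.23, and Bmi1 fell by 1.03. The sex-linked Kdm6a, Uty and Kdm5d were called after transplantation, at 0.60, -0.60 and -0.92, and none of them in male cells only, at 0.12, 0.20 and -0.05.

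Cells were next divided into classes named from marker genes, with the 5 members and Ezh1, Ezh2, Eed and Suz12 left out of the genes used for clustering. A name with -like says only that the class showed those markers. The difference in Jarid2 between libraries labelled Jarid2 KO and the others is given class by class. At baseline it was wide in Lymphoid-primed-like, Mitotic-like and Megakaryocyte-like cells and small in B-like and Erythroid-like cells. After transplantation it was wide in Lymphoid-primed-like and Mitotic-like cells. It was small there in S phase-like cells, and in HSC-like cells against Ezh2 KO.

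Lymphoid-primed-like cells were named from markers such as Flt3, Dntt and Il7r. At baseline the class joined clusters of 720, 522 and 189 Control cells. The cluster of 522 raised 6 of 10 markers (median log2 fold 0.70), with none among its 10 leading genes. Of these, Ppp2r2b, Fyb2, Thbs1 and Bace2 also led an HSC-like cluster, so the class is not cleanly set apart from HSC-like cells. In this class Jarid2 was at 174 and 175 CPM in baseline Control and 156 and 173 CPM in Ezh2 KO. It was at 276 and 282 CPM in Jarid2 KO. It rose by 0.69 against Control (SE 0.08, adjusted p = 0.00578; 0.226% of all genes were called in that class) and by 0.76 against Ezh2 KO (SE 0.07, adjusted p = 0.00156; 0.821%). After transplantation the values were 46.6 CPM in Control, 55.3 and 60.2 CPM in Ezh2 KO and 114 and 107 CPM in Jarid2 KO. The rise against Ezh2 KO was 0.92 (SE 0.13, adjusted p = 0.00496; 3.94%), and the difference from Control was 1.17 (SE 0.19, adjusted p = 0.0701). This class made up 3.28% and 4.00% of cells in baseline Jarid2 KO, 8.32% to 11.1% in the other baseline libraries, 3.81% and 4.55% in transplant Jarid2 KO, 3.24% in transplant Control and 11.4% and 13.6% in transplant Ezh2 KO; the part of the class's size in the result was not tested. These shares depended on the clustering. At the finer resolution the class held 14.2% and 14.4% of baseline Jarid2 KO cells and 15.4% to 20.5% of the others, and at the coarser one 20.2% and 19.5% against 19.4% to 24.0%. The Jarid2 calls held at both: the rises against Control and Ezh2 KO were 0.64 (adjusted p = 0.0017) and 0.72 (adjusted p = 0.000316) at the finer resolution and 0.62 (adjusted p = 0.00277) and 0.69 (adjusted p = 0.000444) at the coarser one. After transplantation the finer resolution gave shares of 5.82% and 6.80% in Jarid2 KO, 4.66% in Control and 16.3% and 14.4% in Ezh2 KO, with a rise against Ezh2 KO of 0.89 (adjusted p = 0.00625), and the coarser one gave no class of that name.

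The Mitotic-like class joined clusters in which genes of chromosome segregation were raised, but its larger cluster in each experiment was led by replication-dependent histone genes such as Hist1h3c and Hist1h2af, which are made in S phase. That cluster held 1306 Control cells at baseline, beside 650 in the one led by genes such as Ccnb2 and Cenpf, and 554 beside 266 after transplantation. The class thus holds cells of more than 1 cycle phase and is not cleanly set apart from S phase-like cells. In Mitotic-like cells baseline Jarid2 was at 136 and 116 CPM in Control, 114 and 117 CPM in Ezh2 KO and 213 and 196 CPM in Jarid2 KO. The rise was 0.71 against Control (SE 0.06, adjusted p = 0.0105; 0.954% called) and 0.80 against Ezh2 KO (SE 0.06, adjusted p = 0.00051; 3.91%). Transplant Mitotic-like cells had 32.6 CPM in Control, 34.2 and 37.7 CPM in Ezh2 KO and 54.9 and 60.3 CPM in Jarid2 KO, a rise of 0.64 against Ezh2 KO (SE 0.10, adjusted p = 0.00915; 6.20%). That transplant call was lost without Ezh2 KO replicate 1 (0.60, adjusted p = 0.073). The baseline difference from Control lost its call when either Jarid2 KO library was left out, with adjusted p-values of 0.0693 (male left out) and 0.0954 (female left out).

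HSC-like cells, which express stem-cell genes such as Procr, Hlf and Mecom, had 184 and 185 CPM of Jarid2 in baseline Control, 158 and 175 CPM in Ezh2 KO and 212 and 211 CPM in Jarid2 KO. Jarid2 rose there by 0.35 against Ezh2 KO (SE 0.06, adjusted p = 0.0196; 1.04% called), a call lost without the male Ezh2 KO library (0.29, adjusted p = 0.133) and under DESeq2 (0.35, adjusted p = 0.0559). The difference from Control, 0.22 (SE 0.06, adjusted p = 0.136), did not pass, but at the coarser resolution it was 0.31 and did (adjusted p = 0.0181). The class was a larger set of cells there, 34.3% against 17.8% of the male Control library. It included a cluster with 3 of 10 HSC markers raised. Transplant HSC-like cells had 50.0 CPM in Control, 54.0 and 58.6 CPM in Ezh2 KO and 64.8 and 61.3 CPM in Jarid2 KO, with no call (0.15 against Ezh2 KO, adjusted p = 0.575).

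S phase-like cells at baseline showed rises of 0.41 against Control (adjusted p = 0.0162; 0.485% called) and 0.61 against Ezh2 KO (adjusted p = 0.0018; 0.984%), the first lost without either Jarid2 KO library (adjusted p = 0.156 and 0.221). After transplantation the same class had 30.5 CPM in Control, 28.8 and 34.0 CPM in Ezh2 KO and 31.1 and 36.0 CPM in Jarid2 KO, which overlap. Transplant Basophil or mast-like cells overlapped as well, at 35.6 CPM in Control, 35.9 and 49.6 CPM in Ezh2 KO and 61.1 and 43.9 CPM in Jarid2 KO (0.32 against Ezh2 KO, SE 0.22, adjusted p = 0.653). Transplant Myeloid-like cells were at 41.2 CPM in Control, 43.6 and 44.1 CPM in Ezh2 KO and 56.4 and 52.8 CPM in Jarid2 KO, with no call (0.33 against Ezh2 KO, adjusted p = 0.165). Megakaryocyte-like cells gave rises of 0.64 (adjusted p = 0.00118; 0.369%) and 0.53 (adjusted p = 0.00562; 0.701%); with either Jarid2 KO library left out, the adjusted p was 0.462 or 0.239 against Control and 0.556 or 0.353 against Ezh2 KO, and it was 0.293 against Ezh2 KO without the male Ezh2 KO library. Neither Megakaryocyte-like call held under DESeq2 (adjusted p = 0.129 and 0.141) or at the finer resolution (edgeR, 0.418 and 0.113). At the finer resolution that class was a larger set of cells, 280 against 88 in the male Control library. Cells left without a name gave rises of 0.48 (edgeR adjusted p = 0.0189, 0.395% called) and 0.58 (adjusted p = 0.00334, 1.30%). At the coarser resolution the unnamed cells were a different, smaller set, 186 against 2254 in the male Control library. Their differences were not called there (edgeR adjusted p = 0.699 and 0.467), which is no check on the same cells. B-like and Erythroid-like cells had differences from Control of 0.22 (SE 0.11) and 0.01 (SE 0.12), and T or innate lymphoid-like cells of 0.29 (SE 0.17), none called.

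**Figure D3:**
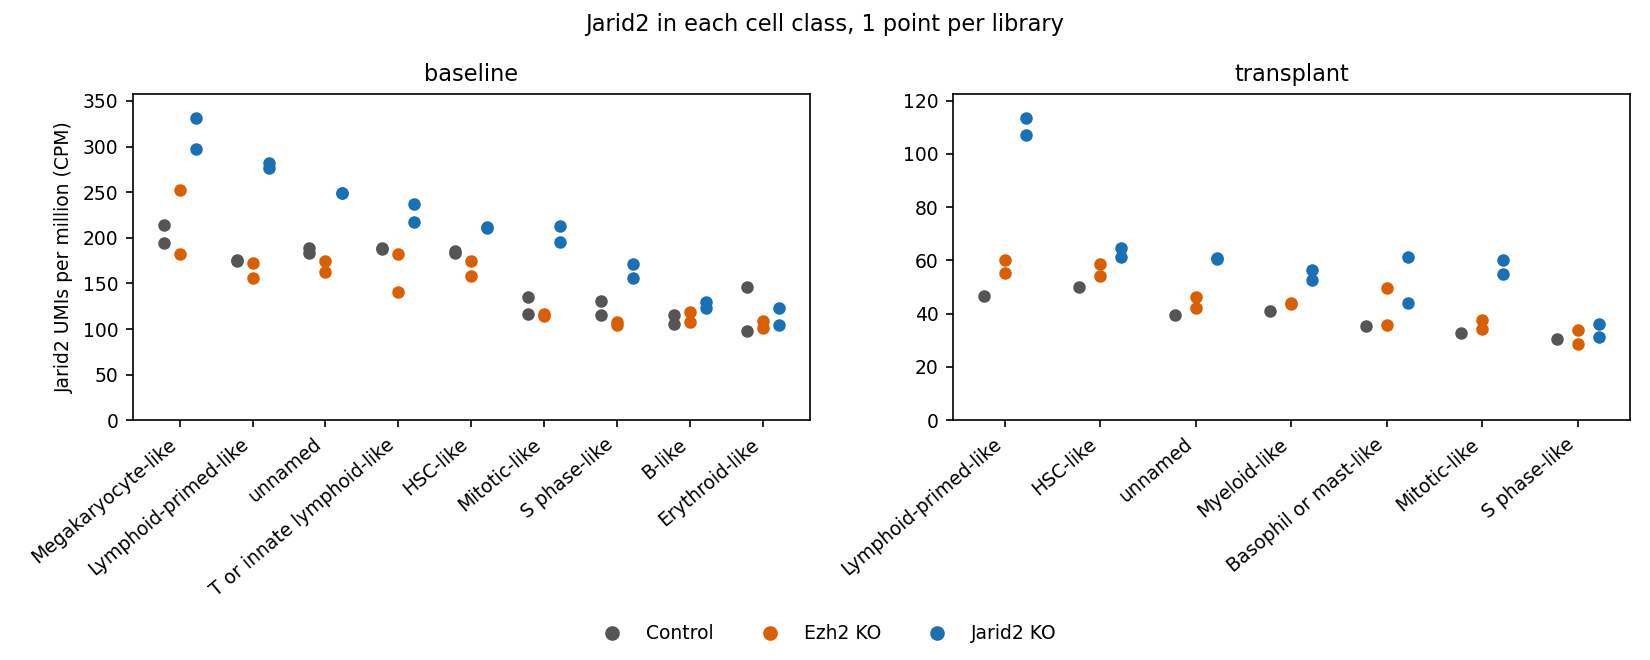
Jarid2 CPM (y axis, from 0) in each class that every library of an experiment held, 1 point per library, coloured by labelled genotype. The Jarid2 KO points stand apart in Lymphoid-primed-like cells, at 276 and 282 CPM at baseline and 114 and 107 CPM after transplantation, and overlap the others in Erythroid-like cells.

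Whether the difference varied between classes was tested on the log2 ratio of Jarid2 CPM in a class to that in HSC-like cells of the same library, for the 3 other named classes present in both experiments. This test was chosen after the class values were seen, so its p-values describe a pattern already noticed and are no independent support. For Lymphoid-primed-like cells the ratio averaged 0.40 in baseline Jarid2 KO and -0.05 in the 4 other baseline libraries, and 0.81 and -0.01 after transplantation. The Jarid2 KO libraries did not overlap the others in either experiment, and the difference averaged 0.63 (n = 4 against 7, exact two-sided permutation test within experiment, p = 0.00667, adjusted over 3 classes p = 0.01). For Mitotic-like cells the ratio was -0.05 against -0.54 at baseline and -0.13 against -0.64 after transplantation, a difference of 0.50 with the same exact p = 0.00667 and adjusted p = 0.01. That is the smallest p these 150 arrangements can give. The share of all genes whose ratios separate in this way is not given here, so these results have no background beside them. Both ratios also share the HSC-like level of each library. For S phase-like cells the ratio was -0.37 against -0.62 at baseline, where the Jarid2 KO libraries did not overlap the others. After transplantation it was -0.91 against -0.80, the opposite direction. The average difference of 0.07 (exact permutation p = 0.447) thus joins 2 opposite differences.

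Jarid2 was also compared at fixed class shares. With every library set to the mean Control shares of UMIs per class, Jarid2 KO minus Control was 0.45 at baseline and 0.56 after transplantation, beside 0.44 and 0.57 without that step (differences of mean log2 CPM). Jarid2 KO minus Ezh2 KO was 0.58 and 0.42, beside 0.61 and 0.39. For Phf19 the baseline values with and without the step were given with its levels. Phf1 in baseline Jarid2 KO minus Ezh2 KO was 0.08 without the step, -0.11 with it and -0.16 with equal weights per class (no test).

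Mtf2 was the 1 other member called in a class. In baseline B-like cells it was at 192 and 211 CPM in Control, 154 and 135 CPM in Ezh2 KO and 195 and 183 CPM in Jarid2 KO. Mtf2 fell by 0.40 in Ezh2 KO against Control (SE 0.09, adjusted p = 0.0171; 9.34% of genes called in that class) and was higher by 0.35 in Jarid2 KO than in Ezh2 KO (SE 0.10, adjusted p = 0.0345; 9.19%). The fall was not called without the female Control library (-0.28, adjusted p = 0.222), which held 168 B-like cells, and the second call was lost when the female Ezh2 KO or either Jarid2 KO library was left out (adjusted p of 0.111, 0.191 and 0.0683). Under DESeq2 neither Mtf2 call passed (adjusted p = 0.0547 and 0.151). B-like cells made up 21.0% and 11.7% of the Ezh2 KO libraries and 2.14% to 6.38% of the other baseline libraries, and the part of that in the result was not tested.

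The 5 members differed in where they were highest, given as the mean ratio of a class to its own library over all cells. Phf1 was high in 2 named classes. T or innate lymphoid-like cells stood at 3.93 times the library (SD 0.79, n = 6) with 25.1 CPM, above every HSC-like value. That class held 83 to 311 cells per library, with median UMIs of 3583 and 5364 in its Control clusters. Its Phf1 level thus rests on few UMIs. HSC-like cells stood at 1.96 (SD 0.23) with 12.4 CPM, above every value of the unnamed cells. Lymphoid-primed-like cells were at 1.15 and overlapped the unnamed cells, which were at 1.41, while S phase-like, Mitotic-like, B-like, Megakaryocyte-like and Erythroid-like cells were at 0.56 to 0.30. After transplantation HSC-like cells were again high at 2.47 (SD 0.26, n = 5) and Myeloid-like cells lowest at 0.34.

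Phf19 ran nearly opposite. It was at 2.16 times the library in B-like cells (SD 0.24) and 2.00 in S phase-like cells (SD 0.32), which overlap, and at 0.42 in HSC-like cells (2.15 CPM, SD of the ratio 0.08). The larger B-like cluster, 457 Control cells beside 140, also had raised Mitotic and S phase markers. The B-like class is thus not cleanly set apart from cycling cells. The unnamed cells were at 0.23. T or innate lymphoid-like cells held 1 Phf19 UMI in each of 2 libraries and none in the other 4, too few to place them in this order. In the transplant libraries S phase-like cells stood at 2.15 (SD 0.29), above every value of the next class, Mitotic-like at 0.98, and HSC-like cells were lowest at 0.51.

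Mtf2 varied less at baseline: Mitotic-like, S phase-like and B-like cells were at 1.18, 1.16 and 1.13 times the library and overlapped. HSC-like cells were at 0.85, and Erythroid-like and T or innate lymphoid-like cells were lowest at 0.60 and 0.56. After transplantation Mtf2 was at 1.15 in S phase-like and 1.11 in Mitotic-like cells, with HSC-like cells next at 0.98. The baseline order of Jarid2 follows. Jarid2 was highest in Megakaryocyte-like cells at 1.47 (SD 0.21), followed by Lymphoid-primed-like and unnamed cells at 1.22 and 1.21, above HSC-like cells at 1.14, and lower in S phase-like, B-like and Erythroid-like cells at 0.78, 0.71 and 0.70; all of these neighbours overlap. The place of Lymphoid-primed-like above HSC-like cells came from the Jarid2 KO libraries, with log2 ratios of 0.38 and 0.42 between the classes, against -0.08 to -0.02 in the 4 other baseline libraries. After transplantation Jarid2 was highest in Lymphoid-primed-like cells at 1.54 (SD 0.36) and lowest in S phase-like cells at 0.68. The log2 ratios of Lymphoid-primed-like to HSC-like cells there were 0.81 and 0.81 in Jarid2 KO, against -0.10 to 0.04 in the others. Aebp2 was highest in T or innate lymphoid-like cells at 1.70 (SD 0.27) and Megakaryocyte-like cells at 1.31 (SD 0.07), the latter above every Lymphoid-primed-like value at 1.10, and stayed within 0.85 to 1.06 in B-like, Erythroid-like, HSC-like, Mitotic-like and S phase-like cells. In the transplant libraries Aebp2 was lowest in Myeloid-like cells at 0.73.

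Across 50 baseline sums of a named class in a library, centred within each library, Phf19 and Mtf2 correlated at r = 0.748, Phf19 and Ezh2 at 0.721 and Phf19 and Suz12 at 0.657. Phf1 correlated with Ezh1 at 0.840 and with Phf19 at -0.753, and Jarid2 with Aebp2 at 0.554. Jarid2 was inversely related to Eed, Suz12 and Ezh2, with r of -0.595, -0.557 and -0.529. Over 32 transplant sums the first 6 pairs gave 0.597, 0.612, 0.672, 0.925, -0.563 and 0.151, and Jarid2 with Eed, Suz12 and Ezh2 gave -0.130, -0.526 and -0.523. These are descriptions, since sums of 1 library share its depth and its cells. The genes most like each member among those of at least 10 CPM were Fgd3 for Jarid2 (0.851), Vps37b for Aebp2 (0.908), Ccdc138 for Mtf2 (0.918), Rps27 for Phf1 (0.930) and Psat1 for Phf19 (0.899). In the transplant sums these pairs had r of 0.524, 0.209, 0.730, 0.918 and 0.546. E2f7, a cell-cycle transcription factor, was second for Phf19 (0.893 and 0.787).

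The surface antibodies of the baseline libraries gave an ordering of cells that does not use transcripts. Cells of each library were divided into 3 equal tertiles by the signal of CD201 and CD150, which are high on stem cells, CD48 and CD135 (Flt3), which mark progenitors, and CD117 (c-Kit). Of 25 pairs of member and antibody, 12 differed between the highest and the lowest tertile in the same direction in 6 of 6 libraries. Over all genes and these antibodies 48.4% of pairs did so, from 39.9% for CD150 to 61.3% for CD48, so the count of 12 is near the background. Each had p = 0.03125, the smallest an exact two-sided sign-flip permutation test over 6 libraries can give, and an adjusted p of 0.0651, so no pair passed 0.05.

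Phf1 had the widest differences. It averaged 9.27 CPM (SD 1.26) in the CD201-high tertile and 4.48 CPM in the CD201-low tertile, a log2 difference of 1.05 (SD 0.26, range 0.70 to 1.31, n = 6). It averaged 4.33 CPM (SD 0.72) in the CD48-high and 9.22 CPM in the CD48-low tertile, a difference of -1.10 (SD 0.31), and was lower by 0.59 in the CD117-high tertile. Phf19 went the other way, with 3.75 CPM in the CD201-high and 5.65 CPM in the CD201-low tertile (-0.61, SD 0.28) and 3.90 CPM against 6.23 CPM for CD135 (-0.67, SD 0.20). It was higher in the CD150-high tertile (0.45, SD 0.18) and in the CD48-high tertile (0.43, SD 0.42). Mtf2 differed by -0.28 for CD201, 0.23 for CD48 and 0.22 for CD117. Median UMIs per cell differed between the same tertiles, for example 9654 in the CD201-high and 13929 in the CD201-low tertile, and the part of depth in these differences was not tested.

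Jarid2 was higher in the CD135-high tertile in 6 of 6 libraries by 0.19 on average, but the libraries differed by genotype. In Control the CD135-low and CD135-high tertiles were at 160.1 and 163 CPM in the male and 149.8 and 155 CPM in the female library. In the libraries labelled Jarid2 KO they were at 194 and 245 CPM and at 176 and 251 CPM. For CD48 the high tertile had 141 and 129 CPM in Control, 116 and 125 CPM in Ezh2 KO and 216 and 201 CPM in Jarid2 KO. The CD48-low tertile had 175 and 178 CPM in Control, 149.8 and 161 CPM in Ezh2 KO and 207 and 204 CPM in Jarid2 KO. The gap between genotypes was thus wider among CD48-high than among CD48-low cells, and among CD135-high than among CD135-low cells; with 2 Jarid2 KO libraries this was not tested. Aebp2 moved least, by -0.08 for CD48 and by 0.03 or less in size for the other 4 antibodies.

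**Figure D4:**
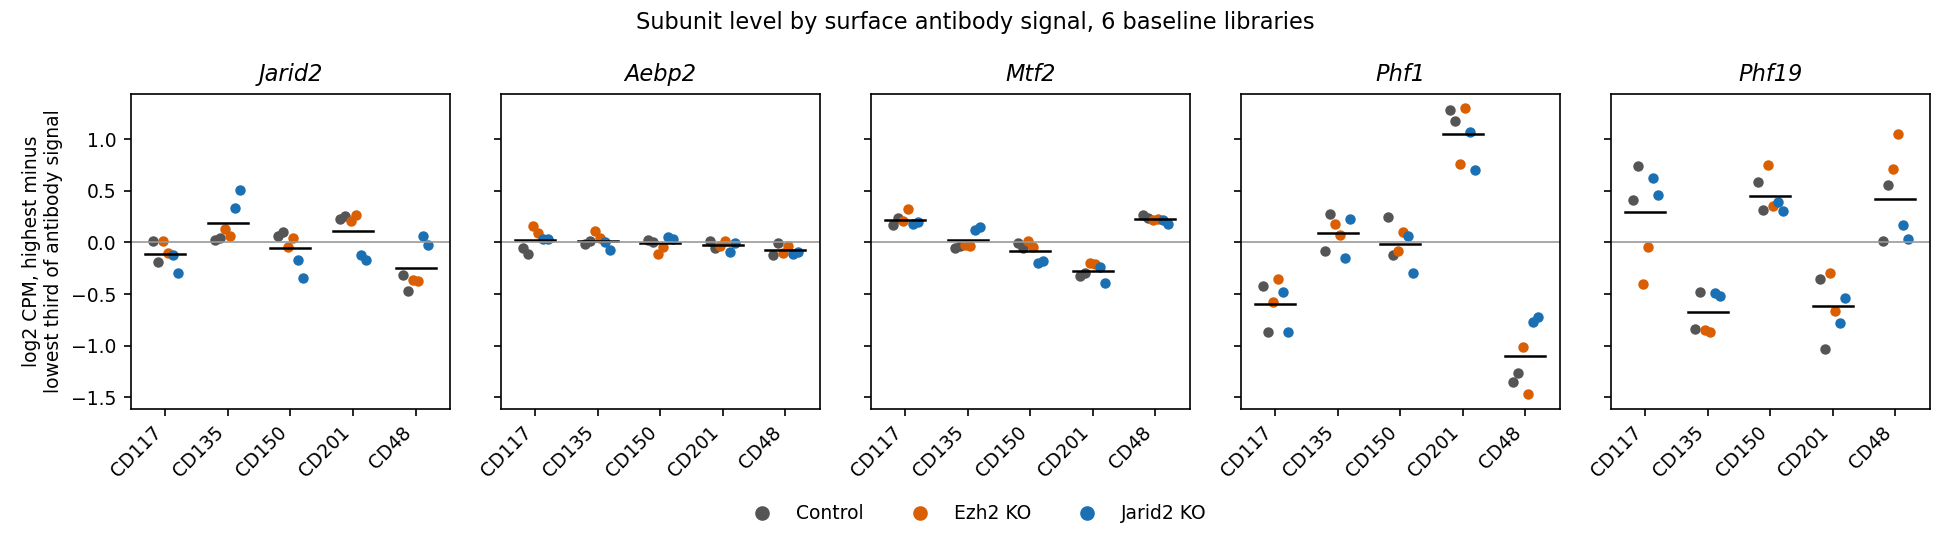
Log2 difference in CPM between the highest and lowest tertile of each antibody signal (y axis) for each subunit, 1 point per baseline library coloured by labelled genotype, with the mean as a bar. Phf1 points lie between 0.70 and 1.31 for CD201 and all below 0 for CD48, and Phf19 points for CD201 and CD135 all below 0.

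Control levels of Jarid2 differed strongly between experiments, at 154 CPM (mean of 2) at baseline and 38.5 CPM in the single transplant library, a ratio of 4.01. Ratios of the other members were 1.91 for Phf1, 1.34 for Mtf2, 1.19 for Aebp2 and 1.13 for Phf19, and those of the core genes ran from 0.888 (Rbbp7) to 1.66 (Ezh1). The Jarid2 gene spans 190870 bases, more than 95.1% of the 9146 genes compared, and its ratio was above that of 92.3% of them. Over these genes the median log2 difference between experiments was -0.21, -0.08, 0.14, 0.49 and 1.32 from the shortest to the longest of 5 equal bins by span (r = 0.56 and rho = 0.61 across genes, which are not independent). Jarid2, with 1.97, and Phf1, which spans 4782 bases, with 0.76, both lay above the median of their bin. The files' headers name different versions of the counting software for the experiments, and software, transplantation and age cannot be told apart, so genotypes were compared only within an experiment.

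**Figure D5:**
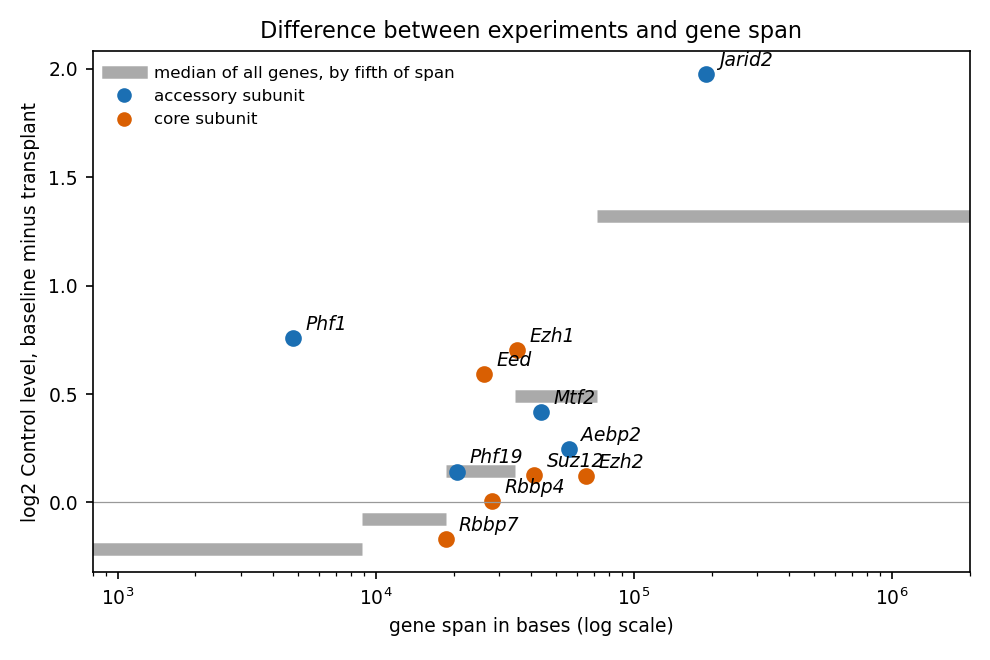
Log2 difference of the Control level between baseline and transplant, with 1 CPM added (y axis), against gene span in bases (x axis, log scale), for the accessory and core subunits. Grey bars are medians of all genes in 5 bins of span, from -0.21 to 1.32, and Jarid2 lies above the bar of its bin.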

How the data were processed

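Members and gene lists were chosen with earlier results of these data known. The deposited 10x Genomics 3′ count matrices hold raw UMI counts per gene and cell, made by the authors with Cell Ranger 7.2.0 (baseline) and 6.1.2 (transplant), per the file headers; the submitters' processing notes name Cell Ranger 3.1.0, Seurat 3.0, Partek and mm10. Whether reads in introns were counted is not given in the sources used here.

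Cells with at least 1000 UMIs, 500 genes and at most 10% mitochondrial UMIs were kept, and the cells with the highest doublet scores (scanpy 1.11.5, 0.8% per 1000 barcodes) were removed, because the automatic threshold marked 0 to 176 cells per library. Counts of kept cells were summed per library. edgeR 4.0.16 (TMM, filterByExpr, quasi-likelihood test) was fitted to all genes, with baseline sex as a term, and called at an adjusted p under 0.05; differences are log2. The fit was also run on simulated counts, with 1 spread set for all genes and no sex difference. These settings differ from the data, so that run does not check the calls made here. With 1 transplant Control library, the spread came from the knockout libraries. Same-sex baseline libraries deviated together from their group means (r = 0.698 to 0.792), and sex was in the fit; same-numbered transplant knockouts did not (r = -0.00831).

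Classes came from Leiden clusters (resolution 0.8) of Control cells, transferred to the nearest neighbours among other cells and named from marker lists. Levels and fits per class needed 50 cells of the class in a library. The comparison at fixed class shares used every class, down to 12 Dendritic-like cells in the male baseline Jarid2 KO library. With equal weights, such small classes counted as much as large ones. Antibody counts were centred log ratios, ranked within a library. Named genes were the members, called genes of the lists, the PRC2 core and the most alike genes. Alternatives were DESeq2, other scalings, gene and cell filters, blocks, resolutions and each library left out. Some results of the PRC1 list are not reported here.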

Additional observations from a re-analysis of the deposited data

Results flagged for a closer look

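Results are given here where a tested difference varied between experiments or classes. The Ezh2 KO minus Control difference of Ezh2 was more negative after transplantation than at baseline, with an interaction of -1.86 on the log2 scale (adjusted p = 0.00191, edgeR's quasi-likelihood test), and the Jarid2 KO minus Ezh2 KO difference of Ezh2 had an interaction of 1.79. In the same comparison of the 2 knockouts, the interaction was -0.58 for Bmi1, 0.85 for Cbx8 and 0.50 for Kdm6a (edgeR adjusted p of 0.0333, 0.0269 and 0.0495), all genes outside the 5 accessory subunits. The share of cells with Xist differed between the transplant libraries. For the X-linked Kdm6a, the transplant difference between the knockouts was 0.60 in all cells and 0.12 in male cells only (adjusted p = 0.504, edgeR), and the interaction was not refitted there.

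For Jarid2, the level in Lymphoid-primed-like cells relative to HSC-like cells was higher in libraries labelled Jarid2 KO than in the others by 0.63, and that in Mitotic-like cells by 0.50 (exact permutation test, adjusted p = 0.01 for both). This test was chosen after the class values were seen, so its p-values are no independent support. The share of all genes with such a difference is not given here. No group of gene-expression libraries had 4 or more members, so single libraries standing apart from their group could not be looked for.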

How the results depend on the processing

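In Jarid2 KO minus Control the count of members called went from 0 to 1, Jarid2, under DESeq2 at baseline, after transplantation and over both, and to 1 with no filter on low counts at baseline and over both. In Jarid2 KO minus Ezh2 KO the count at baseline ran from 0 to 1 when each library was left out; after transplantation it did likewise and was 0 with genes of at least 10 CPM, with the strict cell filter and with male cells only. The replicate block on the transplant knockout libraries gave 0 as well (Jarid2 0.42, adjusted p = 0.0675, edgeR); these libraries share only a number. Without the sex term, the baseline Jarid2 difference between the knockouts was 0.59 (adjusted p = 0.0298, edgeR, no replicate block), and no call of a member changed. Over 5 members, 3 contrasts and 9 baseline classes, 13 combinations were called by edgeR and 8 by DESeq2. Over 7 transplant classes, 2 were called by edgeR and 4 by DESeq2. The p-values were adjusted within each class and contrast only. Both counts also moved with 1 library left out (an alternative added after seeing the data). Shares of all genes called by edgeR stand with the class results, and those of the alternatives are not given here. With equal weights per class the standardised Jarid2 differences were 0.38 (against Control) and 0.45 (against Ezh2 KO) at baseline and 0.41 and 0.34 after transplantation. The causes of these changes were not tested. A fit with 1 library left out has fewer libraries to measure the spread. A call lost there may rest on that library or on the smaller number, which cannot be told apart.

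No difference that changed sign had been called. Class standardisation, which has no test, changed the sign of differences of all members but Jarid2 in 1 comparison or more; the widest was Phf19 between the baseline knockouts, from -0.19 to 0.16 at Control shares and 0.23 with equal weights. Mtf2 in baseline Jarid2 KO minus Ezh2 KO was -0.0042 under DESeq2 and under its size factors, -0.00081 without the low-count filter, -0.0015 without the cell filter, and -0.0567 to 0.0649 with 1 library left out. The ranges with 1 library left out in baseline Jarid2 KO minus Control were -0.107 to 0.0176 for Mtf2 and -0.0485 to 0.12 for Phf19, and for Phf1 between the baseline knockouts -0.0234 to 0.128. For Phf19 the range was -0.0418 to 0.0888 in transplant Ezh2 KO minus Control (-0.0682 in male cells) and -0.119 to 0.0454 in Jarid2 KO minus Control over both experiments. For Jarid2 it was -0.0843 to 0.0063 in Ezh2 KO minus Control over both. Among interaction terms it was -0.0593 to 0.0658 for Mtf2 in Jarid2 KO minus Control (-0.0205 with genes of at least 10 CPM, -3.8e-05 with doublets kept), and between the knockouts -0.0345 to 0.0993 for Phf1 and -0.038 to 0.102 for Phf19. The Phf1 interaction of Ezh2 KO minus Control was -0.0105 with the strict cell filter. Between the outer parts of 4 equal parts by CD150, Aebp2 differed by 0.0233 and Phf1 by 0.0292. Phf1 and Phf19 rest on few UMIs, which limits what can be seen of them, and the single transplant Control library limits every comparison with it.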
